A study of Homo sapiens with 9 samples.

Results

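FKBP5 and 6 genes that act with it on steroid receptors were followed across 9 arrays of LNCaP cells, an established human prostate cancer line that depends on androgen. The 7 genes were chosen by name, out of 19775 genes with a probe set of their own: the co-chaperone genes FKBP5, FKBP4, PTGES3 and STIP1, the chaperone genes HSP90AA1 and HSP90AB1, and NR3C1, the gene of the glucocorticoid receptor. They have 22 probe sets in all, none of them shared with another gene symbol. The brightest probe set of a gene, by its mean level, gives the main value, and the others serve as a check. Probe sets of 1 gene read the same RNA and are not replicates.

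Each group had 1 array, and all cells were LNCaP. In the inhibitor series, 1 array came from cells kept in 10% serum (steady state). For the other 4, androgen was first withdrawn for 48 h in medium with 5% serum cleared of steroids by charcoal: without further treatment (vehicle), with 100 nM dihydrotestosterone (DHT) for 16 h, and with 100 µM etoposide or 100 µM merbarone added 2 h before the same DHT treatment. Etoposide and merbarone both act on topoisomerase II, etoposide by holding the enzyme on cut DNA and merbarone by inhibiting its catalysis. Cells of the shRNA series carried a vector for green fluorescent protein with either sh-control or sh-TOP2B. They were deprived of androgen for 48 h in 5% serum and received vehicle or 100 nM DHT for 16 h. They were sorted for fluorescence before RNA was taken. TOP2B encodes topoisomerase II beta. Its level was 10.54 and 10.87 in the sh-control arrays and 10.09 and 10.01 in the sh-TOP2B arrays, lower in both pairs. It was 9.94 with etoposide and 10.03 with merbarone, against 10.44 to 10.57 on the other 3 arrays of the inhibitor series.

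A steroid receptor without hormone is held ready for it by a chaperone cycle. The HSP70 system takes up the receptor first, STIP1 (also called HOP) links HSP70 to HSP90, and PTGES3 (also called p23) stabilises the mature complex with HSP90. FKBP5 (FKBP51) and FKBP4 (FKBP52) compete for the same end of HSP90: FKBP4 favours hormone binding and transport into the nucleus, whereas FKBP5 lowers the response of the glucocorticoid receptor. FKBP5 is itself a target gene of the androgen, glucocorticoid and progesterone receptors, so it is often read as a gauge of receptor activity, and in prostate cells it is one of the best known androgen-induced genes.

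All values are log2 RMA values, on which a difference of 1 is a 2-fold change. The median of an array lay between 5.61 and 5.72, and a level below that median is called dim. Of the 8 luminal prostate markers 7 were measured, and 5 of these were above the median on every array. The androgen-induced KLK3 was dim with merbarone, and KLK2 with merbarone and on the 3 vehicle arrays. Of the 4 leukocyte and the 4 fibroblast markers 3 each were dim on all 9 arrays. The shRNA arrays stood apart from the others in RNA quality: the signal at the 3′ end of the beta-actin transcript exceeded that at the 5′ end by 2.38 to 3.09 there, against 0.38 to 0.70 in the inhibitor series. The summed level of the fibroblast markers, which was nearly all COL1A1, was 9.46 to 9.77 in the shRNA series and 8.49 to 8.96 in the inhibitor series, and that of the endothelial markers 6.76 to 7.67 and 8.01 to 8.44. Whether array quality or cell handling had a part in the results below was not tested, and series, transfection and sorting cannot be told apart. In bulk RNA, fewer cells of a type and less RNA per cell cannot be told apart either.

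**Figure D1:**
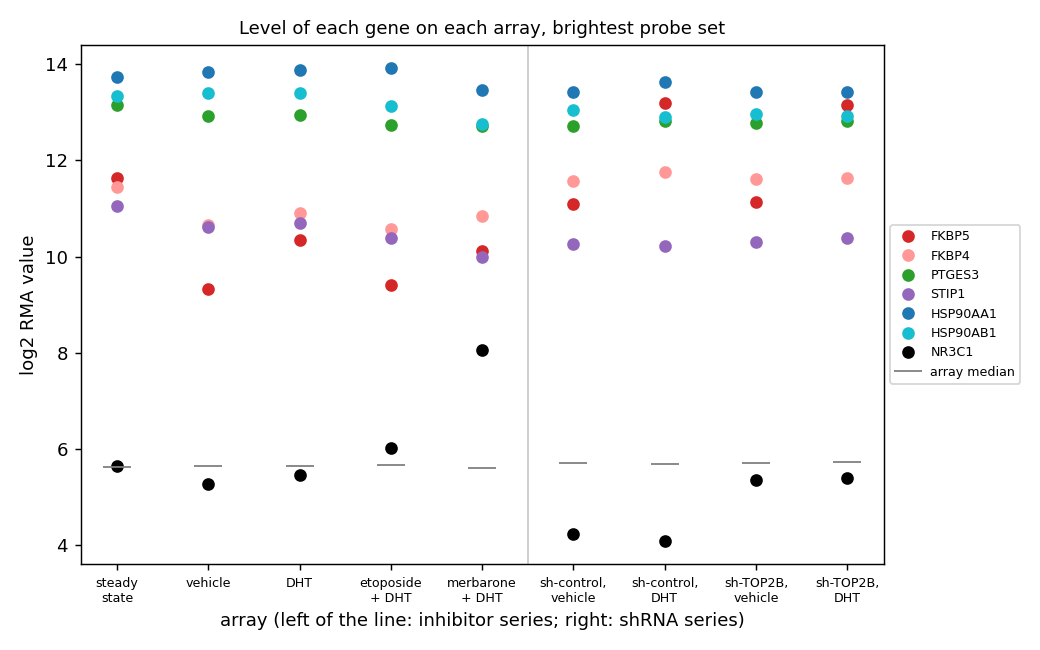
Log2 RMA value of the brightest probe set of each of the 7 genes (points) on each of the 9 arrays, with the median of each array as a grey bar. FKBP5 moves most among the 6 genes above the median, and NR3C1 is at 8.06 with merbarone and at most 6.02 elsewhere. Probe sets differ in efficiency, so heights are to be compared along a gene and not between genes.

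FKBP5 was the only one of the 6 members tested that was called higher with DHT. In the inhibitor series its level was 9.33 with vehicle and 10.34 with DHT. Cells with sh-control went from 11.10 with vehicle to 13.20 with DHT. Cells with sh-TOP2B went from 11.13 to 13.16. The DHT array was thus the higher one in each of the 3 pairs, but the vehicle level of the sorted cells lay above the DHT level of the unsorted cells. Over the 3 pairs the mean rise was 1.71 ± 0.20 (SE), or 3.28-fold, with an adjusted p of 0.032 in a limma fit over all 11865 genes tested. DHT called 1 of the 6 members tested as higher, and 0.421% of all genes tested were called higher, 0.0253% lower and 0.447% in either direction. Without the sh-control pair the rise was 1.52 (limma adjusted p = 0.621) and without the sh-TOP2B pair 1.55 (limma adjusted p = 0.306), so the call was lost without either. It was also lost without the filter on dim genes (limma adjusted p = 0.0606), with the median over probe sets (rise 2.32, limma adjusted p = 0.051) and without the variance trend (limma adjusted p = 0.211). Without the inhibitor pair the rise was 2.06 and the call was kept. The call was also kept with quantile normalization, ribosomal centring, the filter at the 60th percentile and only the 6 arrays of the pairs.

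All 3 FKBP5 probe sets gave the same direction in every pair and differed in size. In the inhibitor series they rose by 1.01, 1.15 and 1.23, from the brightest to the dimmest, or 2.02-fold to 2.34-fold. The rises with sh-control were 2.10, 2.96 and 3.44. Those with sh-TOP2B were 2.03, 2.83 and 3.53. On the dimmest probe set, which stood at 7.57 and 7.62 with vehicle, these are 10.8-fold and 11.5-fold rises. The main value, from the brightest probe set, is the smallest of the 3 in each pair.

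**Figure D2:**
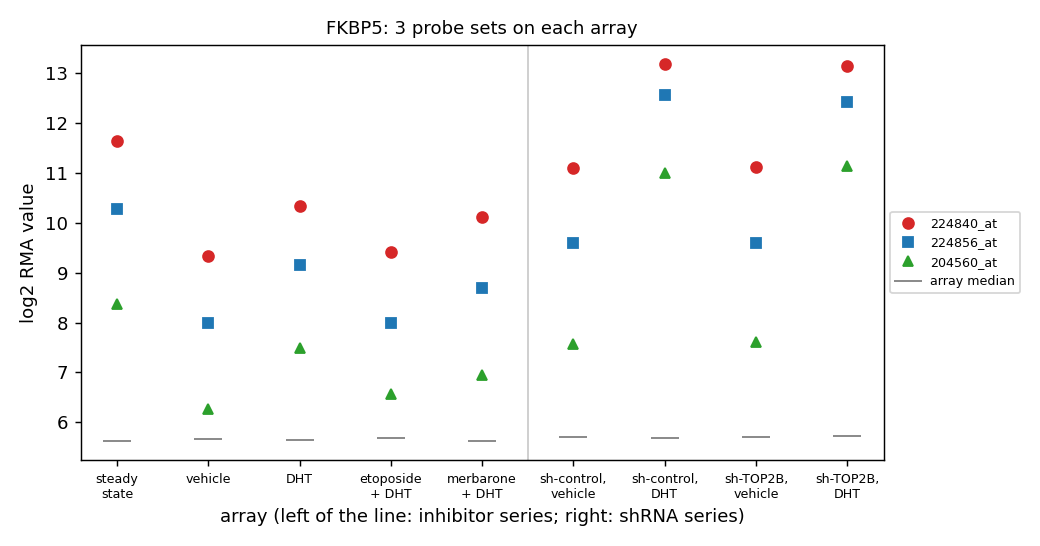
Log2 RMA values of the 3 FKBP5 probe sets (coloured symbols) on each array, with the array median as a grey bar. All 3 are higher with DHT than with vehicle in each pair, and all 3 are back within 0.29 of vehicle with etoposide and 0.69 to 0.79 above it with merbarone.

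The DHT response of FKBP5 was larger in the transfected and sorted cells than in the inhibitor series. The difference between the mean rise of the 2 shRNA pairs and that of the inhibitor pair was 1.05 ± 0.12 (SE), a comparison that was added after the values were seen (limma adjusted p = 0.00125). Of the 6 members tested FKBP5 was the 1 that passed, and 2.98% of all genes tested passed (1.51% higher and 1.47% lower). Its spread is how far the 2 shRNA pairs differ, and with no variance trend the call was lost (limma adjusted p = 0.264). In the shRNA pairs the beta-actin difference between transcript ends was 2.67 with DHT and 3.09 with vehicle for sh-control, and 2.38 and 2.69 for sh-TOP2B. It was 0.46 with DHT and 0.47 with vehicle in the inhibitor pair. Its part in the larger response was not tested.

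No effect of the TOP2B knockdown on FKBP5 was detectable with these arrays, on which TOP2B itself was not called lower. The rise with DHT in sh-TOP2B cells differed from that in sh-control cells by -0.07 ± 0.48 (SE; 95% interval -1.24 to 1.11, limma adjusted p = 1). The SE of that difference rests on how far the DHT responses of the inhibitor and sh-control pairs differ, and not on spread between the vectors. Averaged over vehicle and DHT, the level in sh-TOP2B cells differed from that in sh-control cells by -0.01 (95% interval -0.60 to 0.58, limma adjusted p = 0.998). The 2nd and 3rd probe sets differed between the vectors by 0.00 and 0.05 with vehicle and by -0.13 and 0.14 with DHT. None of the 6 members tested passed in either comparison, and none had an unadjusted p under 0.05. limma called 1.05% of all genes for the knockdown, all of them higher, and 832 genes had an unadjusted p under 0.05. For the knockdown's effect on the DHT response limma called 0%, and 147 genes had an unadjusted p under 0.05.

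Within the inhibitor series, cells in full serum held more FKBP5 and more FKBP4 than deprived cells. On its brightest probe set FKBP4 was higher still on the 4 shRNA arrays (11.56 to 11.76). Its 2nd probe set was lower there than in steady state, at 9.90 to 9.98 against 10.82. FKBP5 was higher still on the 2 shRNA arrays with DHT. FKBP5 stood at 11.63 in steady state, against 9.33 with vehicle, a difference of 2.31 ± 0.35 (SE) or 4.95-fold (limma adjusted p = 0.00414). The other 2 FKBP5 probe sets gave 2.28 and 2.11. It also stood 1.30 above the array with DHT (limma adjusted p = 0.0384). That call against DHT was lost under 7 of 9 other settings, with adjusted p-values from 0.0531 to 0.226. FKBP4 stood at 11.44 in steady state, 10.66 with vehicle and 10.90 with DHT. It was higher in steady state by 0.78 ± 0.12 (SE) than with vehicle, or 1.71-fold (limma adjusted p = 0.00425), and by 0.54 than with DHT (limma adjusted p = 0.0186), a call lost under 5 of 9 other settings. Its 2nd probe set gave 1.06 and 0.83. Its other 2 probe sets were dim on all 9 arrays.

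STIP1 was higher in steady state than with vehicle by 0.42 ± 0.13 (SE; limma adjusted p = 0.0497), but its 2nd probe set went the other way (-0.16), and the call was lost under 7 of 9 other settings. PTGES3, at 13.14 against 12.92, did not pass (limma adjusted p = 0.0602). HSP90AA1 differed by -0.10 (95% interval -0.30 to 0.09) and HSP90AB1 by -0.06 (95% interval -0.24 to 0.13). With the median over probe sets, HSP90AB1 differed by -0.38 and passed (limma adjusted p = 0.0228). In all, 3 of 6 members tested were higher in steady state than with vehicle and 0 lower, against 15.7% and 12.4% of all genes tested (28.1% in either direction). Against the DHT array 2 of 6 were higher and 0 lower, where 13.5% of all genes tested were higher, 11.4% lower and 24.8% called in either direction. With the arrays centred on ribosomal protein genes the median of all genes fell by 0.14 against vehicle and by 0.16 against DHT. FKBP5 and FKBP4 were then still higher than with vehicle, by 2.17 and 0.64, and STIP1 no longer passed (0.28). Against DHT, HSP90AA1 then passed as lower (-0.30, limma adjusted p = 0.0295), and HSP90AB1 did with the median over probe sets (-0.37, limma adjusted p = 0.0291).

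The other co-chaperones and the HSP90 genes showed little response to DHT. FKBP4 differed by 0.15 ± 0.07 (SE; limma adjusted p = 0.287), with values of 0.24, 0.20 and 0.03 in the inhibitor, sh-control and sh-TOP2B pairs. PTGES3 differed by 0.06, STIP1 by 0.04, HSP90AA1 by 0.09 and HSP90AB1 by -0.07, and none of these passed. The 95% intervals of these 5 genes all lay between -0.18 and 0.32, so a change of FKBP5's size was outside each of them. The signs of FKBP4 and HSP90AB1 turned with the median over probe sets (-0.03 and 0.09).

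**Figure D3:**
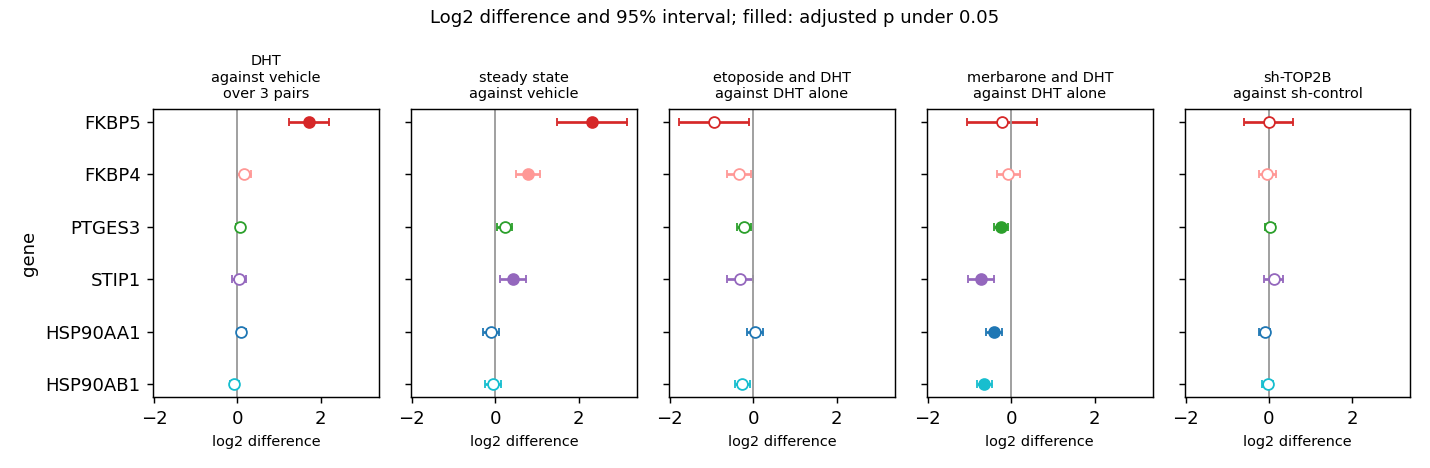
Log2 difference (points) with its 95% limma interval (bars) for the 6 members tested, in 5 comparisons; filled points had an adjusted p under 0.05. FKBP5 is far from 0 for DHT and for steady state, and 4 of the 6 genes are filled below 0 for merbarone.

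With etoposide and DHT, FKBP5 stood closer to vehicle than to DHT alone, but the differences did not pass. Its level was 9.41, against 10.34 with DHT alone and 9.33 with vehicle. The 2nd probe set read 7.999 with etoposide, 9.15 with DHT and 7.995 with vehicle, and the 3rd read 6.56, 7.50 and 6.27. The etoposide array was thus below the DHT array on all 3 probe sets (-0.93, -1.15 and -0.94) and at most 0.29 above vehicle. The fit's SE for this 1 array against 1 was 0.35, and neither difference passed: limma adjusted p = 0.289 against DHT alone and 0.981 against vehicle, a comparison added after the values were seen. Against vehicle 0 of 6 members tested passed in limma, with 2 at an unadjusted p under 0.05. Of all genes 0.169% were higher, 0.801% lower and 0.969% either, and 1599 of 11865 had an unadjusted p under 0.05. That SE is taken from how far the DHT responses of the 3 pairs differ, which for FKBP5 is far. The comparisons of etoposide, merbarone and steady state with DHT alone share the DHT array.

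The other members differed less with etoposide. Against DHT alone FKBP4 differed by -0.33, STIP1 by -0.31, HSP90AB1 by -0.26, PTGES3 by -0.21 and HSP90AA1 by 0.04. None of the 6 members tested passed in limma, although 5 had an unadjusted p under 0.05, and 1.05% of all genes tested passed (0.211% higher and 0.834% lower). Of all 11865 genes tested, 1732 had an unadjusted p under 0.05 in limma. The median over the 6 was -0.29, against -0.06 over all genes. FKBP4's 2nd probe set gave -0.88, a larger difference than its brightest one.

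With merbarone, FKBP5 lay between vehicle and DHT alone. It stood at 10.11, which is 0.23 below DHT alone (95% interval -1.06 to 0.61, limma adjusted p = 0.705) and 0.79 above vehicle (95% interval -0.05 to 1.62, limma adjusted p = 0.141, a comparison added after the values were seen). The other probe sets were 0.47 and 0.54 lower than with DHT alone, and 0.69 above vehicle in both cases. When the reference was fitted from all pairs, the value was 1.14 against vehicle and then passed (limma adjusted p = 0.0326), and -0.58 against DHT alone (limma adjusted p = 0.217). In that setting etoposide stood 0.43 above vehicle (limma adjusted p = 0.558). Etoposide and merbarone, given at equal doses and times, differed in FKBP5 by -0.71 (etoposide minus merbarone, 95% interval -1.54 to 0.13, limma adjusted p = 0.177). FKBP4 differed between them by -0.27 (limma adjusted p = 0.135) and PTGES3 by 0.03, 2 further differences that did not pass.

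Both HSP90 genes and 2 of their co-chaperones fell with merbarone. HSP90AB1 fell from 13.39 with DHT alone to 12.75, by 0.64 ± 0.08 (SE) on the log2 scale or 1.56-fold (limma adjusted p = 0.00179). HSP90AA1 fell from 13.87 to 13.46, by 0.41 ± 0.08 (SE) or 1.33-fold (limma adjusted p = 0.0107). STIP1 fell from 10.71 to 9.99, by 0.72 ± 0.13 (SE) or 1.64-fold (limma adjusted p = 0.00717). PTGES3 fell from 12.95 to 12.71, by 0.24 (limma adjusted p = 0.0438), a call lost under 6 of 9 other settings. The merbarone array was the lowest of the 5 inhibitor-series arrays for each of these 4 genes. FKBP4 differed by -0.06 and did not pass.

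The other probe sets of these genes went the same way. The 3 HSP90AB1 probe sets differed by -0.64, -0.61 and -0.60, the 4 HSP90AA1 probe sets by -0.41, -0.38, -0.27 and -0.56, and the 2 STIP1 probe sets by -0.72 and -1.10. PTGES3 has only 1. The members called lower were 4 of 6, against 16.3% of all genes tested, and 0 of 6 were higher, against 15.4% (31.7% in either direction). The median over the 6 was -0.33, and that over all genes was 0.00. HSP90AA1 was not called without the variance trend (limma adjusted p = 0.116), while HSP90AB1 and STIP1 passed under all 9 other settings, with differences of -0.60 to -0.74 and -0.70 to -0.91.

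Against vehicle, in a comparison added after the values were seen, merbarone gave nearly the same differences: -0.64 for HSP90AB1, -0.63 for STIP1 and -0.37 for HSP90AA1, 3 of the 6 members tested, all lower (limma adjusted p = 0.0018, 0.0115 and 0.0158). The share of all genes called lower there was 15.9%, with 15.8% higher and 31.7% in either direction. The HSP90AA1 call was lost with the median over probe sets (limma adjusted p = 0.0556) and without the variance trend (limma adjusted p = 0.146). The 2 comparisons share the merbarone array. Against etoposide both HSP90 genes were lower with merbarone, HSP90AA1 by 0.45 (limma adjusted p = 0.00777) and HSP90AB1 by 0.38 (limma adjusted p = 0.0116). These were 2 of 6 members higher with etoposide and 0 lower, where 13.5% of all genes tested were higher, 19.1% lower and 32.6% called in either direction. STIP1, 0.41 higher with etoposide, did not pass (limma adjusted p = 0.0518) but passed under 4 other settings. Without the variance trend neither HSP90 gene passed.

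Both HSP90 genes carry the binding motif of heat shock factors just upstream of a transcription start. The stretches are shown because both HSP90 genes among the members fell with merbarone. Each is the 250 bases before a RefSeq start (GRCh38.p14), 5′ to 3′ on the gene's strand. The start was picked, among the 2 windows of HSP90AA1 and the 3 of HSP90AB1, as the one whose window held most matches. Both starts lie inside the annotated span of their gene. Capitals mark matches to the heat shock element, searched on both strands as the units GAA, TTC and GAA in that order with NN between neighbours. HSP90AA1 lies at chr14:102087045-102087294 on the minus strand, and HSP90AB1 at chr6:44247693-44247942 on the plus strand.
HSP90AA1: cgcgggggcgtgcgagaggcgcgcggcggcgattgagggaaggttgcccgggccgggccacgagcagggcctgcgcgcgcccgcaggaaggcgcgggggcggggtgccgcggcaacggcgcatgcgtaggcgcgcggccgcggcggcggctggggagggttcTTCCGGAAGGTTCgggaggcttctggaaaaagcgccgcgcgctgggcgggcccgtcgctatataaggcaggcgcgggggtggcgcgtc
HSP90AB1: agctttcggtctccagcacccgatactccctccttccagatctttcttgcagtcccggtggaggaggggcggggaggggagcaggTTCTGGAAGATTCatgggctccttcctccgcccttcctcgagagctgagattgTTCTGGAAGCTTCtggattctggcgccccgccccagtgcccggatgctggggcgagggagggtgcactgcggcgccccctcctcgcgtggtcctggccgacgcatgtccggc
The HSP90AA1 match began 88 bases before the start, and the HSP90AB1 matches 165 and 112 bases before. Of 35116 promoter windows of 300 bases, 172 held such a match (0.49%), as did 2 of the 17 windows of the members. FKBP4 has no window in the table used.

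Among 38 genes with a window from the members and the HSP90 and HSP70 lists, 6 held the motif: HSP90AA1, HSP90AB1, CHORDC1, HSPA8, DNAJA1 and DNAJB6. Of these 6, 5 were tested with merbarone, and 3 were called lower and 0 higher. Of the 32 without it 26 were tested, with 7 lower and 5 higher. Over all genes 16.3% were lower and 15.4% higher, and 2 of the 3 lower genes are the HSP90 genes whose fall led to the search, so nothing is read from these counts. STIP1, which also fell, held no match. The motif is a description of these letters and was not tested for binding. No member window held the full androgen and glucocorticoid receptor motif (AGAACA, NNN and TGTTCT in a row, both strands), which 1 of the 35116 windows held, nor its looser form (GNACA, NNN and TGTNC), held by 0.39%. The single unit TGTTCT, on either strand, occurred in 14.8% of all windows. Among the members it was found in an FKBP5 window, from the first transcribed base, and in an HSP90AB1 window 114 bases before the start, where it overlaps a heat shock match. Receptor binding at FKBP5 is known mainly from elements inside its introns and far from the start, outside these windows.

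NR3C1 was dim on 6 of 9 arrays and stood highest with merbarone. Its level was 5.64 in steady state, 5.28 with vehicle, 5.46 with DHT, 6.02 with etoposide and 8.06 with merbarone. The shRNA series read 4.23 (vehicle) and 4.09 (DHT) with sh-control, and 5.36 and 5.39 with sh-TOP2B, all dim. LNCaP cells are known for holding little glucocorticoid receptor. Since the DHT level was dim, the rise with merbarone over DHT alone is a bound, at least 2.40 or 5.29-fold. The tests named below used the differences as read, 2.59 over DHT alone and 2.78 over vehicle, which rest on dim levels. The mean of NR3C1 over the arrays, 5.50, was below the filter of the fits, 5.92, so it was not among the 11865 genes. In the fit without that filter it passed against DHT alone (limma adjusted p = 0.00215), against vehicle (0.00176) and against etoposide (0.0053), where merbarone was higher by 2.03. With etoposide itself it did not pass (limma adjusted p = 0.617).

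Of the 5 NR3C1 probe sets 3 rose above the array median with merbarone. The 3rd read 4.27 with DHT and 7.55 with merbarone, and the 4th 3.75 and 6.70. The 2nd, at 4.97 and 5.59, and the 5th, at 2.21 and 2.64, were dim on all 9 arrays. The merbarone array was the highest of the 9 on all 5 probe sets, but on the 2nd and 5th this rests on dim levels only. By its name the brightest probe set is of the type that may cross-hybridise with unrelated transcripts, and the 3rd and 4th are of the type that several transcripts can share. The sh-TOP2B arrays were above the sh-control arrays by 1.14 and 1.30 on the brightest probe set and by 2.21 and 1.30 on the 4th, but all these levels were dim, so no difference is read from them (limma adjusted p = 0.0671 without the filter).

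**Figure D4:**
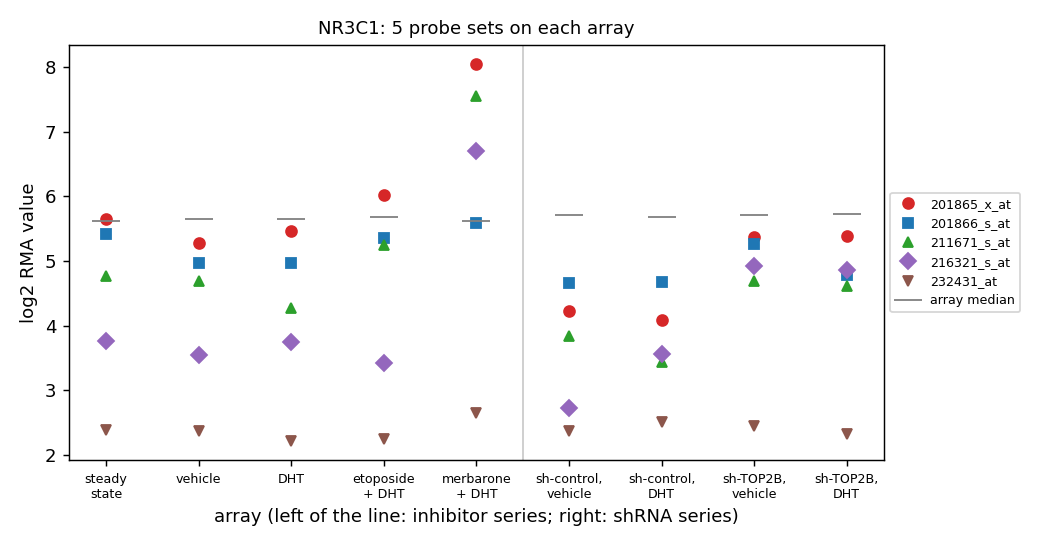
Log2 RMA values of the 5 NR3C1 probe sets (coloured symbols) on each array, with the array median as a grey bar. With merbarone 3 probe sets stand above the median, at 8.06, 7.55 and 6.70, while on the other arrays the only values above it are those of the brightest probe set in steady state (5.64) and with etoposide (6.02).

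The other steroid receptor genes offered 1 gene above the filter. NR3C2, which encodes the mineralocorticoid receptor, also rose with merbarone, from 7.99 with DHT alone to 9.15, by 1.16 ± 0.19 (SE; limma adjusted p = 0.0057). It was lower with etoposide than with merbarone by 1.89 (limma adjusted p = 0.00124). It did not pass for DHT (-0.25).

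Of 15 measured genes known to be induced by both the glucocorticoid and the androgen receptor, 3 rose with DHT and 0 fell, against 0.421% of all genes called higher. These were ZBTB16, a zinc finger transcription factor (2.50), TMPRSS2, a membrane protease (2.16), and STK39, a kinase of ion cotransporters (1.44). The list was chosen for androgen induction and with earlier results of these data known, so its count for DHT is only a description. With merbarone 6 were higher and 4 lower than with DHT alone, against 15.4% and 16.3% of all genes. S100P, a calcium-binding protein, rose by 1.80, while TMPRSS2 fell by 1.94 and AZGP1, a secreted glycoprotein, by 1.68. ZBTB16 fell by 0.93 and STK39 by 0.54, and TSC22D3, an anti-inflammatory leucine zipper protein, rose by 0.82, DUSP1, a MAP kinase phosphatase, by 0.97 and MT2A, a metallothionein, by 0.96. With etoposide none of the 15 passed in limma (5 had an unadjusted p under 0.05), as against 1.05% of all genes. Of all 11865 genes tested, 1732 had an unadjusted p under 0.05 there. The medians were 0.56 for DHT and 0.44 for merbarone, against -0.02 and 0.00 over all genes. In steady state 5 were higher and 5 lower than with vehicle, against 15.7% and 12.4% of all genes, and the median was -0.31 against 0.05 over all genes. ZBTB16 was higher by 3.84, TMPRSS2 by 2.48 and STK39 by 2.39, while NFKBIA, the inhibitor of NF-kappaB, differed by -1.65 and CEBPD, a transcription factor, by -1.05, both called lower.

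In the HSP90 machinery outside the members, none of 18 genes passed for DHT or for etoposide in limma, with 2 and 3 at an unadjusted p under 0.05. Of all 11865 genes tested 0.447% and 1.05% passed, and 2288 and 1732 had an unadjusted p under 0.05. With merbarone 5 of the 18 rose and 1 fell, against 15.4% and 16.3% of all genes. CDC37L1, a relative of the kinase co-chaperone CDC37, rose by 1.37 and SUGT1 by 0.73, while PPID, a cyclophilin that binds HSP90 where FKBP4 and FKBP5 do, fell by 0.86 (limma adjusted p = 0.00262). The list's median was 0.19 against 0.00 over all genes, whereas the members' median was below 0. In steady state 7 of 18 were higher than with vehicle and 0 lower, against 15.7% and 12.4% of all genes, led by the mitochondrial HSP90 gene TRAP1 (1.45), CHORDC1 (0.77) and the ubiquitin ligase gene STUB1 (0.58).

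Of 17 genes of the HSP70 system, which hands receptors on to HSP90, 5 fell and 3 rose with merbarone, against 16.3% and 15.4% of all genes, with a median of -0.003. HSPA1L fell by 1.45 and HSPH1, a nucleotide exchange factor, by 1.35, and BAG1 rose by 1.23. None passed in limma for DHT or etoposide, with 3 each at an unadjusted p under 0.05. Over all 11865 genes tested 0.447% and 1.05% passed, and 2288 and 1732 had an unadjusted p under 0.05. Of 11 FKBP genes outside the members, which encode prolyl isomerases of several compartments, 5 fell and 0 rose with merbarone, against 16.3% and 15.4% of all genes, led by FKBP14 (-1.24) and FKBP9 (-0.81), both of the endoplasmic reticulum. FKBP7 (at least 0.23 lower) was dim with merbarone. FKBP1A, the cytosolic receptor of tacrolimus, was lower in steady state than with vehicle by 1.79 (limma adjusted p = 2.84e-05), opposite to FKBP5 and FKBP4.

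The genes whose pattern was most like FKBP5's were HOMER2, GNMT, STK39, AKAP5 and MPHOSPH9. Likeness was the mean absolute difference over the 9 arrays after centring within each series, which was 0.16 for HOMER2, a scaffold protein gene, 0.18 for GNMT, which encodes glycine N-methyltransferase, and 0.26 to 0.27 for the other 3. The median over 11864 genes was 0.85, and the other 5 members tested lay between 0.67 and 0.87. HOMER2 was higher with DHT by 0.77 in the inhibitor pair, 2.02 with sh-control and 1.91 with sh-TOP2B, values given as a description. With merbarone HOMER2 was 0.05 above DHT alone and with etoposide 0.50 below. GNMT was 0.76 below DHT alone with etoposide and 0.50 below with merbarone. AKAP5, which encodes an anchor of protein kinase A, was dim on 2 arrays.

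**Figure D5:**
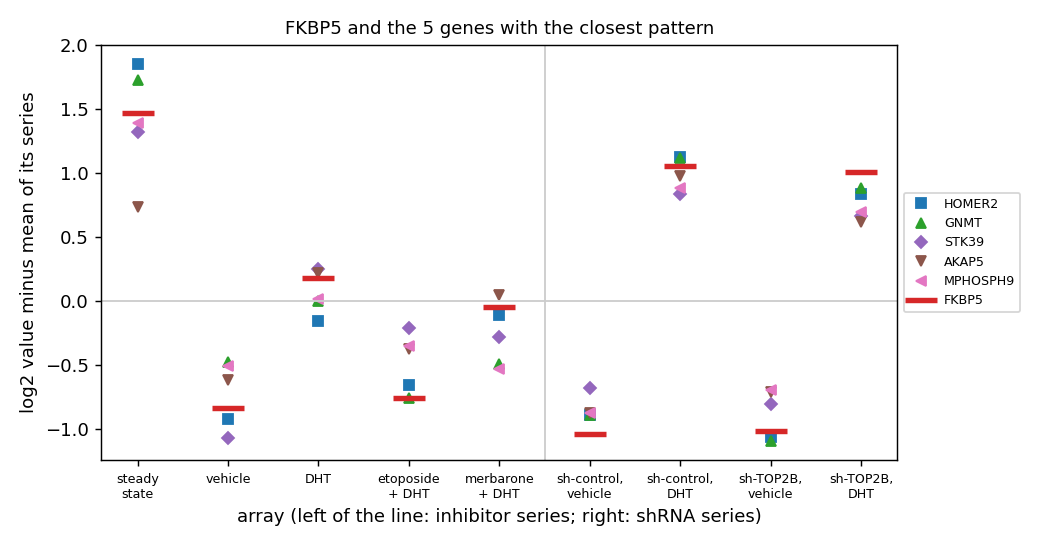
Log2 values of FKBP5 (red bars) and of the 5 genes with the closest pattern (symbols) on each array, each minus the gene's mean over the arrays of its series. Steady state stands highest in the inhibitor series, and vehicle stands below DHT alone. For GNMT vehicle stands above both inhibitor arrays, and for MPHOSPH9 above the merbarone array. Both DHT arrays stand above both vehicle arrays in the shRNA series.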

How the data were processed

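Total RNA of 9 LNCaP cultures or sorted cell samples was hybridised to Affymetrix U133 Plus 2.0 arrays with 54675 probe sets, 1 array per group. The deposited values are on the log2 scale, made with RMA per the submitters' processing notes. A version or further steps were not given in the sources used here. This method makes the arrays' distributions alike, which hides any shift common to most genes. Probe sets were named from the platform annotation: 41097 had 1 symbol, 1801 several and 11777 none, and 41043 matched a RefSeq gene ID (GRCh38.p14, for names). A gene was represented by its brightest probe set.

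Tests used limma 3.58.1 in R 4.3.3, two-sided, with Benjamini-Hochberg adjustment over all 11865 genes at or above the 40th percentile of mean level, and a threshold of 0.05. An additive fit held 3 backgrounds, a DHT term and 1 term for each lone array, which left 2 residual and 4.62 prior degrees of freedom, so that the disagreement among the 3 DHT responses sets the error. Lone arrays were set directly against their reference array, assuming that they vary like the paired ones, and the fit for the knockdown's effect on the DHT response had 1 more term. The number of arrays limits the precision, and since no label speaks of separate cultures within a group, p-values reflect the spread among these samples, which may be technical. The fit was tested on simulated data with the same DHT effect in all 3 pairs, and so not on responses that differ between pairs. The members, lists and rules were chosen with earlier results of these data known. All members were named in every comparison, up to 3 leading genes of each list and the 5 genes closest to FKBP5, except that ZBTB16, STK39, TSC22D3, DUSP1 and MT2A with merbarone were named after their values were seen, as were NFKBIA and CEBPD in steady state. Promoter sequences are RefSeq's. Some listed genes, among them 1 of the 5 other steroid receptors, are not analysed here, and 3 receptors fell below the filter. Alternatives were another normalization, centring on 53 ribosomal protein genes, other filters (none, or the 60th percentile), the median over probe sets, no variance trend, pairs left out and a fitted reference.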

Additional observations from a re-analysis of the deposited data

Results flagged for a closer look

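The DHT response of FKBP5 differed between the series. The mean rise in the shRNA pairs minus that in the inhibitor pair was 1.05 on the log2 scale (limma adjusted p = 0.00125). FKBP5 was higher with DHT in 3 of 3 pairs. The difference was set out because the test of the difference itself passed, and series, transfection and sorting cannot be told apart.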

How the results depend on the processing

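With 1 array per group, the p-values rest on the spread of at most 3 DHT responses. Of 596 single-gene values under other settings, 530 kept their direction and their side of the threshold, 36 lost the call, 12 gained it, 11 changed sign and 7 moved without a test. limma called 53 genes for DHT. It called 20 with no filter, 35 with the median over probe sets, 5 without the trend, 2627 without the inhibitor pair (44.3% higher, against 94.3%), 1 without the sh-control pair and 9 without the sh-TOP2B pair. Among the members the 1 call for DHT became 0 under all of these but the one without the inhibitor pair. For etoposide against DHT alone the count of 124 became 72 (quantile), 56 (no filter), 192 (60th percentile), 0 in limma with no trend (unadjusted p under 0.05 in 1529), 0 without the sh-control pair (unadjusted, 1434), 29 without the sh-TOP2B pair and 232 with a fitted reference. For etoposide against vehicle 115 became 67 (quantile), 75 (ribosomal centring), 69 (no filter), 0 with no trend (unadjusted, 1403), 0 (unadjusted, 1329) and 26 without the sh-control and sh-TOP2B pairs, and 205 (fitted reference). The 4 members called for merbarone became 2 without the trend, and the 2 that differed between the compounds became 0. The 2 members called for steady state against DHT became 1 with quantile normalization, no filter, the median or a fitted reference, and 0 without the trend or without either shRNA pair. Over all genes that comparison gave 1918 calls without the sh-TOP2B pair, against 2946. The knockdown gave 81 calls without the trend and 315 without the inhibitor pair, against 124. The difference between the series' DHT responses gave 148 calls with no filter, 607 at the 60th percentile and 0 without the trend (unadjusted, 1326; 0 members), against 353. Centring on ribosomal protein genes moved the share of calls that were higher from 20.2% to 31.4% for etoposide against DHT alone, from 17.4% to 30.7% for etoposide against vehicle, from 48.5% to 38.1% for merbarone, from 41.4% to 62.8% between the compounds, and from 55.7% to 39.5% and 54.2% to 35.8% for steady state against vehicle and DHT. The causes of these changes were not tested.

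The values that changed sign did not pass in either setting. With the median over probe sets they were FKBP4 and HSP90AB1 for DHT (-0.0251 and 0.0874), HSP90AB1 for the knockdown (0.17), FKBP4 for the knockdown's effect on the DHT response (0.19), FKBP4 for merbarone against vehicle (-0.21), and STIP1 and HSP90AB1 for the difference between the series (0.0321 and 0.15). With ribosomal centring they were FKBP5 and HSP90AB1 for the knockdown (0.0265 and 0.0053) and FKBP4 for etoposide against vehicle (0.0089). FKBP5's knockdown effect on the DHT response was 0.48 against the mean of both other pairs. The labels give no replicate numbers to pair by; the pairs of the DHT test are the vehicle and DHT arrays of 1 background.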
